A study of Arabidopsis thaliana with 30 samples.

Results

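The genes described here are the seed storage protein genes of Arabidopsis thaliana, 9 of the 27827 genes on the table. They were taken by locus. Of the 9, 4 encode 12S cruciferins, namely CRA1 (AT5G44120), CRU2 (also called CRB, AT1G03880), CRU3 (also called CRC, AT4G28520) and AT1G03890, which has no symbol in RefSeq. The other 5 encode 2S albumins and are SESA1 (AT4G27140), SESA2 (AT4G27150), SESA3 (AT4G27160), SESA4 (AT4G27170) and SESA5 (AT5G54740). In RefSeq's annotation of TAIR10.1, CRU2 and AT1G03890 lie side by side on chromosome 1, and SESA1, SESA2, SESA3 and SESA4 follow each other on chromosome 4, with 0 other genes between neighbours. CRU3 lies elsewhere on chromosome 4, and CRA1 and SESA5 lie apart from each other on chromosome 5. All 9 passed the noise filter and were among the 17061 genes tested. Polysomal mRNA (RNA from the polysome region of a sucrose gradient) and total mRNA were each hybridized to arrays at 5 time points, which were dry seeds and seeds or seedlings imbibed for 6, 26, 48 and 72 h (hours after imbibition, HAI), with 3 replicates per group and 30 arrays in all. The seeds were Col-0, the common laboratory accession, after-ripened until they germinated fully. They were imbibed on wet paper at a constant temperature in continuous light, and no treatment other than imbibition was given. A replicate was seed from a bulk of 100 plants, so the spread between replicates is that between bulks and not between plants.

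Storage proteins are made during seed maturation on the endoplasmic reticulum and are carried to protein storage vacuoles, where 12S precursors are cut into an acidic and a basic chain and 2S precursors into a small and a large chain. The mature proteins feed the seedling after germination. Their genes are switched on in the maturing embryo by the B3 factors LEC2, FUS3 and ABI3 together with LEC1 and bZIP partners, and their mRNAs are among the messages that a dry seed holds. Proteins of both families are encoded by small gene families of related sequence, and how far the probes of one copy also bound transcripts of another was not tested. RNA was taken from whole seeds and seedlings, so that fewer cells with these transcripts and less transcript per cell cannot be told apart.

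One array stood apart in these genes. On replicate 3 of polysomal mRNA at 72 HAI, the 9 genes were 1.14 (SESA2) to 4.74 (CRU2) higher on the log2 scale than the mean of the other 2 replicates, and 7 of the 9 were higher by more than 2. Over all genes, 125 were higher by more than 2 on that array, and 119 of these had a mean level above 8 in dry seeds, against 1887 such genes in the whole table. On the other 29 arrays 0 of the 9 genes deviated upwards by more than 2. The seed markers moved with them: OLEO1, an oil body oleosin, had 4.30, 4.55 and 7.50 on the 3 polysomal arrays at 72 HAI, and GEA6, a late embryogenesis abundant protein, had 3.83, 4.02 and 7.13. The mean level of the 4 seed markers was 3.93, 3.81 and 6.64 on these arrays. That of the 4 endosperm markers was 3.77, 4.08 and 4.29, and that of the 4 green seedling markers 8.02, 8.16 and 7.65. The endosperm markers did not move alike. Over the 3 arrays EPR1 averaged 4.75 (4.12 without replicate 3), EXPA2 4.51 (4.83) and AT5G66460 4.44 (4.40). The part of seed material in the values of this array was not tested. Because the fit takes 1 spread per gene from all groups, this array also widened the standard errors (SE) of the 9 genes in the other comparisons. Calls of the 9 genes that depend on it are given with and without it.

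**Figure D1:**
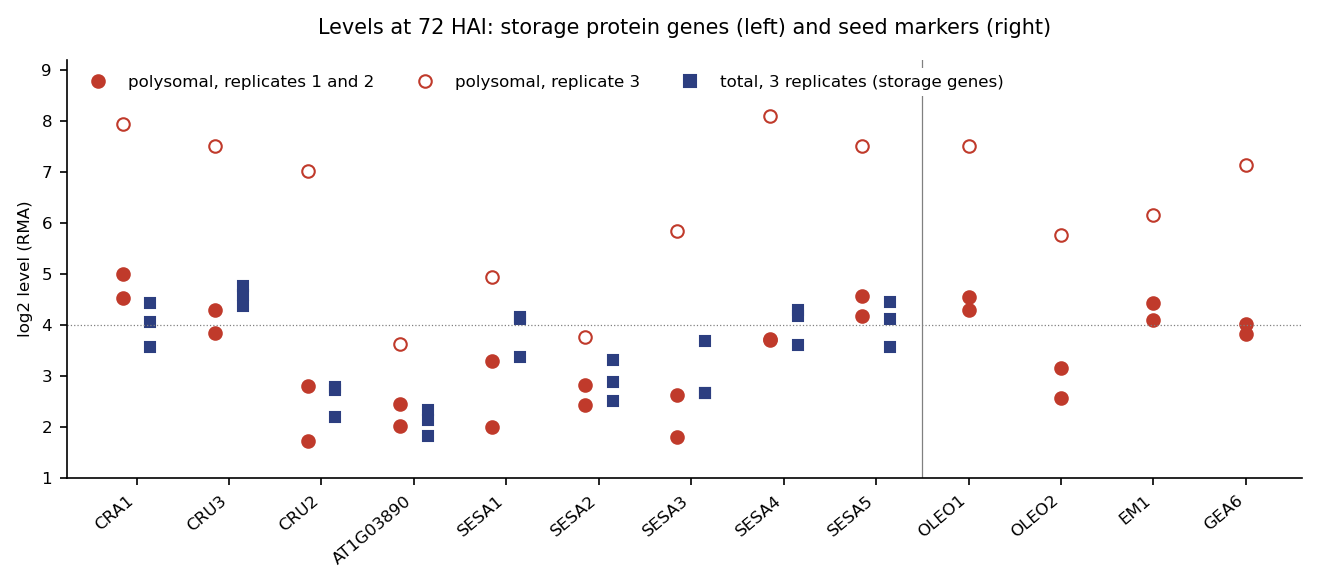
Log2 level (RMA) on each array at 72 HAI for the 9 storage protein genes, with polysomal arrays as circles and total mRNA arrays as squares, and for 4 seed markers on the polysomal arrays alone. The open circle is polysomal replicate 3, which lay above both other polysomal replicates for all 13 genes, as with CRU2 at 7.01 against 1.73 and 2.82. The dotted line marks the noise level of 4.

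The storage protein transcripts were abundant in dry seeds and low at 72 HAI. In dry seeds 5 of the 9 genes were among the 100 highest genes of each polysomal array, and 6 of each total mRNA array. By 72 HAI the polysomal mRNA of all 9 genes had fallen against dry seeds, by 3.99 (SESA2) to 7.80 (CRU2) on the log2 scale, with a median change of -6.10 against -0.14 for all genes tested. The total mRNA of all 9 had fallen as well, by 5.27 (SESA2) to 9.09 (CRU2), with a median of -7.51 against 0.06 for all genes tested. Of all genes tested, 31.1% were called lower and 30.2% higher in polysomal mRNA at 72 HAI against dry seeds, and 27.1% lower and 33% higher in total mRNA, a call being a Benjamini-Hochberg adjusted p below 0.05 in limma and a log2 change above 1 in size. In each fraction 1 of the 17061 genes tested had a lower change than CRU2.

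The cruciferin CRA1 was high until 26 HAI and fell most on the log2 scale between 26 and 48 HAI. Its polysomal log2 level was 11.59, 11.69 and 11.78 in dry seeds, 11.31, 11.02 and 11.08 at 6 HAI, 10.26, 10.09 and 10.77 at 26 HAI, 7.16, 5.79 and 6.31 at 48 HAI and finally 5.01, 4.52 and 7.93 at 72 HAI. Its total mRNA level was 11.83, 11.77 and 11.72 in dry seeds, 11.72, 11.63 and 11.68 at 6 HAI, 10.93, 10.88 and 11.23 at 26 HAI, 7.45, 6.15 and 6.37 at 48 HAI and finally 4.06, 3.57 and 4.44 at 72 HAI. The arrays of 48 HAI lay below all those of 26 HAI in both fractions, and total mRNA arrays of 72 HAI lay below those of 48 HAI, whereas the polysomal arrays of 72 and 48 HAI overlapped through replicate 3. From dry seeds to 72 HAI total CRA1 mRNA changed by -7.75 ± 0.50 (SE, adjusted p = 1.71e-13, limma), a 215-fold lower signal.

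The cruciferin CRU2 had fallen further than CRA1 by 26 HAI. Its polysomal level was 11.56, 11.70 and 11.69 in dry seeds, 10.61, 10.49 and 10.57 at 6 HAI, 6.69, 7.10 and 7.89 at 26 HAI, 3.46, 3.69 and 3.82 at 48 HAI and finally 1.73, 2.82 and 7.01 at 72 HAI. Its total mRNA level was 11.69, 11.68 and 11.64 in dry seeds, 11.40, 11.29 and 11.28 at 6 HAI, 7.62, 7.77 and 8.36 at 26 HAI, 3.08, 2.56 and 2.98 at 48 HAI and finally 2.21, 2.74 and 2.78 at 72 HAI. It was thus below the noise level on all arrays from 48 HAI except for polysomal replicate 3 at 72 HAI, so that its later values carry no order.

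AT1G03890, the cruciferin gene next to CRU2, was the first to reach the noise level. Its polysomal level was 8.84, 8.76 and 8.84 in dry seeds and 6.46, 6.10 and 6.55 at 6 HAI, and its highest array from 26 HAI on had 3.64. Its total mRNA level was 9.05, 8.99 and 9.01 in dry seeds and 7.87, 7.43 and 7.53 at 6 HAI, and its highest array from 26 HAI on had 3.73. The 6 HAI arrays lay below the dry arrays in both fractions. The cruciferin CRU3 followed CRA1 and averaged 11.64, 10.84, 9.52, 5.83 and 5.21 in polysomal mRNA and 11.74, 11.63, 10.62, 6.39 and 4.58 in total mRNA over the 5 time points in order. Its polysomal mean at 72 HAI was 4.06 without replicate 3.

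The albumin SESA5 averaged 11.30, 10.75, 9.55, 5.26 and 5.41 in polysomal mRNA and 11.67, 11.23, 9.93, 5.26 and 4.05 in total mRNA over the 5 time points in order. Its polysomal mean at 72 HAI was 4.37 without replicate 3. In total mRNA the 4 clustered albumin genes had come down further than SESA5 by 26 HAI. Over the same time points SESA4 averaged 11.18, 11.12, 8.17, 4.08 and 5.17 in polysomal mRNA and 11.54, 11.18, 8.35, 4.61 and 4.03 in total mRNA. SESA3 averaged 10.39, 10.31, 7.21, 2.80 and 3.43 in polysomal mRNA and 10.95, 10.61, 7.18, 3.72 and 3.01 in total mRNA. Their polysomal means at 72 HAI were 3.71 (SESA4) and 2.22 (SESA3) without replicate 3. These albumins were at or below the noise level at 48 HAI or close to it. SESA1 averaged 9.62, 9.37, 6.18, 3.20 and 3.42 in polysomal mRNA and 10.22, 9.86, 6.73, 4.21 and 3.88 in total mRNA. SESA2 averaged 7.00, 7.05, 5.50, 2.56 and 3.01 in polysomal mRNA and 8.18, 7.20, 5.57, 3.24 and 2.91 in total mRNA. Without that replicate their polysomal means at 72 HAI were 2.66 (SESA1) and 2.63 (SESA2). The highest standard deviation of the 9 genes was that of CRU2 on the polysomal arrays at 72 HAI, with 2.79 (n = 3).

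**Figure D2:**
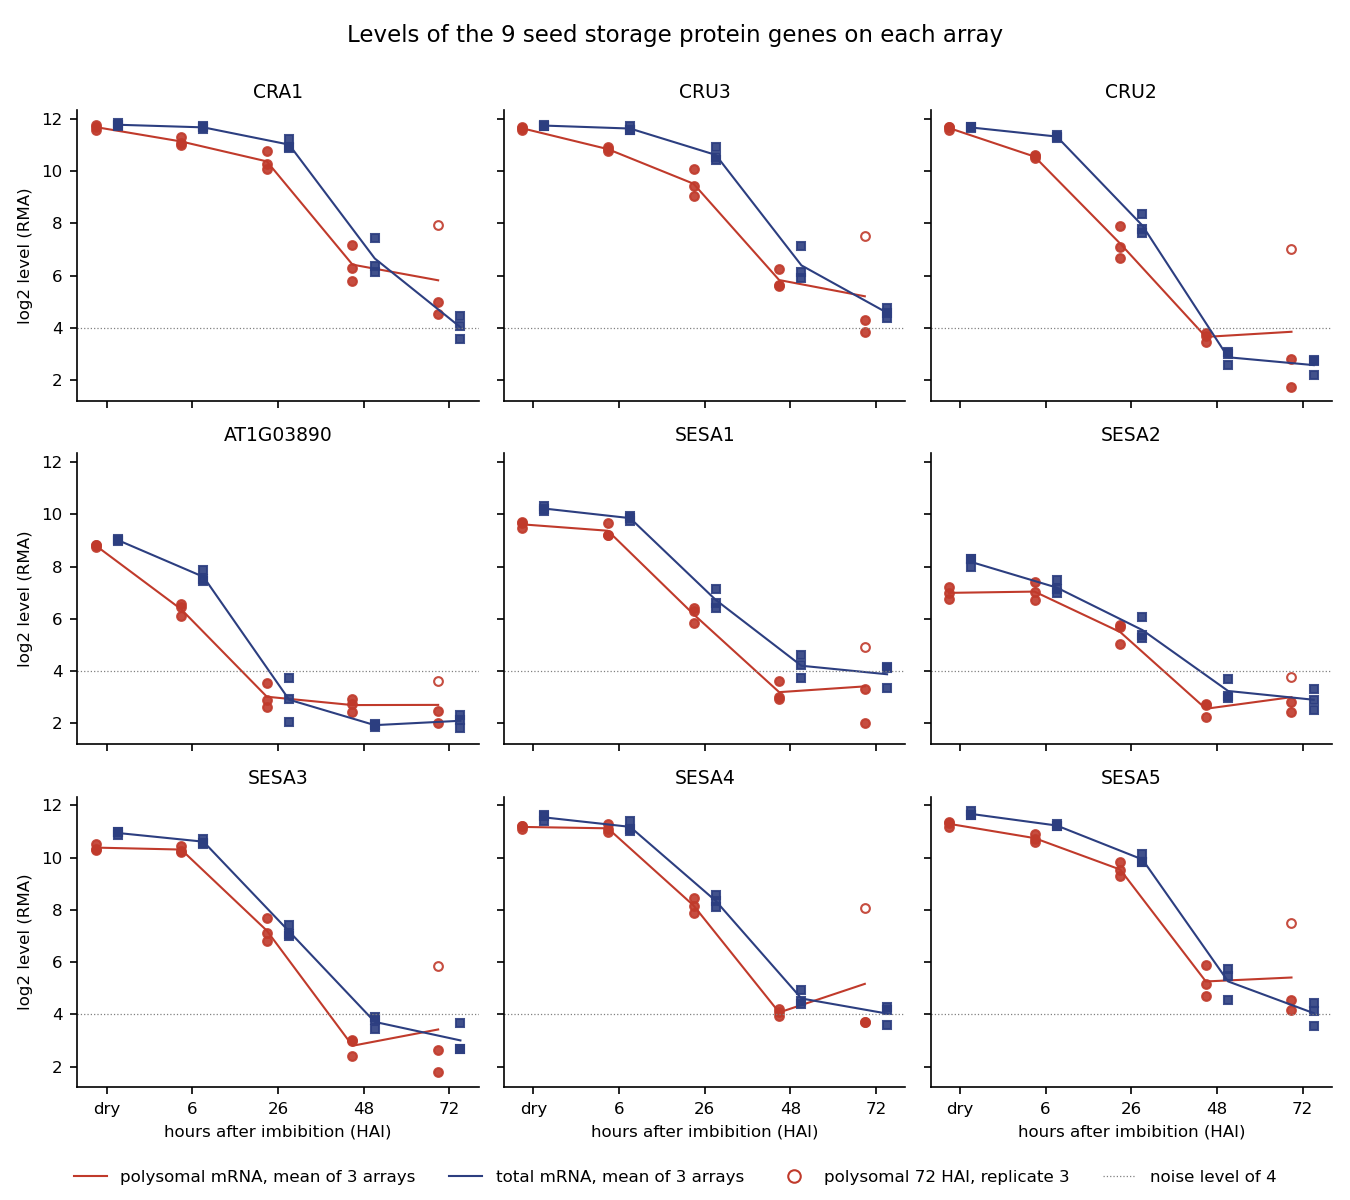
Log2 level (RMA) of each storage protein gene on each array by time after the start of imbibition, with time points spaced evenly. Circles and the left line are polysomal mRNA, squares and the right line total mRNA, lines join the means of 3 arrays, the open circle is polysomal replicate 3 at 72 HAI, and the dotted line marks the noise level of 4. AT1G03890 was below 4 on every array from 26 HAI, whereas CRA1 still had 10.09 to 11.23 at 26 HAI.

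At 6 HAI against dry seeds 1 of 9 was called lower in polysomal mRNA, where 15.1% of all genes tested were called lower and 16.9% higher, and 1 of 9 in total mRNA, where 9.93% were called lower and 16.8% higher. In both cases this was AT1G03890, which changed by -2.45 ± 0.32 in polysomal mRNA (adjusted p = 3.2e-07, limma) and by -1.41 ± 0.32 in total mRNA (adjusted p = 0.00058, limma). Without polysomal replicate 3 of 72 HAI, CRU2 was also called lower in polysomal mRNA, with the same change of -1.10 and an adjusted p of 0.000578 in place of 0.167. SESA2 in total mRNA changed by -0.98 ± 0.29 and fell short of the size of 1, which it passed without total mRNA replicate 1 of 6 HAI (-1.12) and without dry total mRNA replicate 2 (-1.08). The other changes lay between -0.80 and 0.05 in polysomal mRNA and between -0.10 and -0.44 in total mRNA. Levels of the more abundant members in dry seeds were close to the array maxima of 11.62 to 12.69, and whether the arrays compress differences there was not tested.

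Most of the fall on the log2 scale took place between 6 and 48 HAI, the time in which the seed coat ruptures and the radicle emerges. All 9 changes were negative in both fractions over both of its intervals. Between 6 and 26 HAI 8 of the 9 genes were called lower in polysomal mRNA, where 9.77% of all genes tested were called lower and 14.7% higher, and 7 of 9 in total mRNA, where 10.2% were called lower and 15.5% higher. Between 26 and 48 HAI 8 of 9 were called lower in polysomal mRNA, where 14.6% were called lower and 14% higher, and 8 of 9 in total mRNA, where 14.9% were called lower and 15.3% higher. The exception of the later interval was AT1G03890 in both fractions, which had reached the noise level before. The median change of the 9 genes in total mRNA was -2.83 between 6 and 26 HAI and -3.73 between 26 and 48 HAI, against -0.02 and -0.18 for all genes tested.

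The members differed in which of these intervals held the larger log2 fall. In total mRNA between 6 and 26 HAI, AT1G03890 changed by -4.70 ± 0.32, SESA3 by -3.44 ± 0.53, CRU2 by -3.41 ± 0.67, SESA1 by -3.13 ± 0.41, SESA4 by -2.83 ± 0.60 and SESA2 by -1.63 ± 0.29, with a highest adjusted p of 0.000275 (limma). SESA5 changed by -1.30 ± 0.49 (adjusted p = 0.0262), CRU3 by -1.01 ± 0.52 (adjusted p = 0.0998) and CRA1 by -0.66 ± 0.50 (adjusted p = 0.278). The 6 genes that lie beside another member were thus the 6 with the larger changes, and the 3 that lie alone were those with the smaller ones. This grouping was noticed after the values were seen and was not tested. On the log2 scale, the share of the dry to 72 HAI fall of total mRNA reached by 26 HAI was 9.81% for CRA1, 15.7% for CRU3 and 22.9% for SESA5. For the other 6 it was 41.3% (CRU2) to 88.3% (AT1G03890). These are shares of a log2 fall and not of the amount of mRNA lost. Several of the 72 HAI values behind them were below the noise level. In polysomal mRNA over the same interval CRA1 changed by -0.76 ± 0.50, CRU3 by -1.32 ± 0.52 and SESA5 by -1.20 ± 0.49, against -1.55 ± 0.29 (SESA2) to -3.35 ± 0.32 (AT1G03890) for the other 6.

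Between 26 and 48 HAI the order was different. In total mRNA CRU2 changed by -5.04 ± 0.67, SESA5 by -4.67 ± 0.49, CRA1 by -4.36 ± 0.50 and CRU3 by -4.23 ± 0.52, with a highest adjusted p of 4.83e-07 (limma). The clustered albumins changed by -2.33 ± 0.29 (SESA2) to -3.73 ± 0.60 (SESA4), and AT1G03890, which was at the noise level at both times, by -0.97 ± 0.32. In polysomal mRNA the changes of CRA1, CRU3, CRU2 and SESA5 lay between -3.57 and -4.28, and those of the clustered albumins between -2.94 and -4.40.

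The calls near the threshold depended on single arrays. Without polysomal replicate 3 of 72 HAI, CRU3 was called lower in total mRNA between 6 and 26 HAI as well (adjusted p = 0.00135), which makes 8 of 9. SESA5 lost its call over that interval in total mRNA when replicate 1 or 2 of 26 HAI or any of the 3 replicates of 6 HAI was left out, with adjusted p values of 0.0509 to 0.0657. In polysomal mRNA CRU3 and SESA5 each lost it when replicate 1 or 2 of 26 HAI or any replicate of 6 HAI was left out. AT1G03890 was called lower in total mRNA between 26 and 48 HAI without replicate 1 of 26 HAI, with a change of -1.39.

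**Figure D3:**
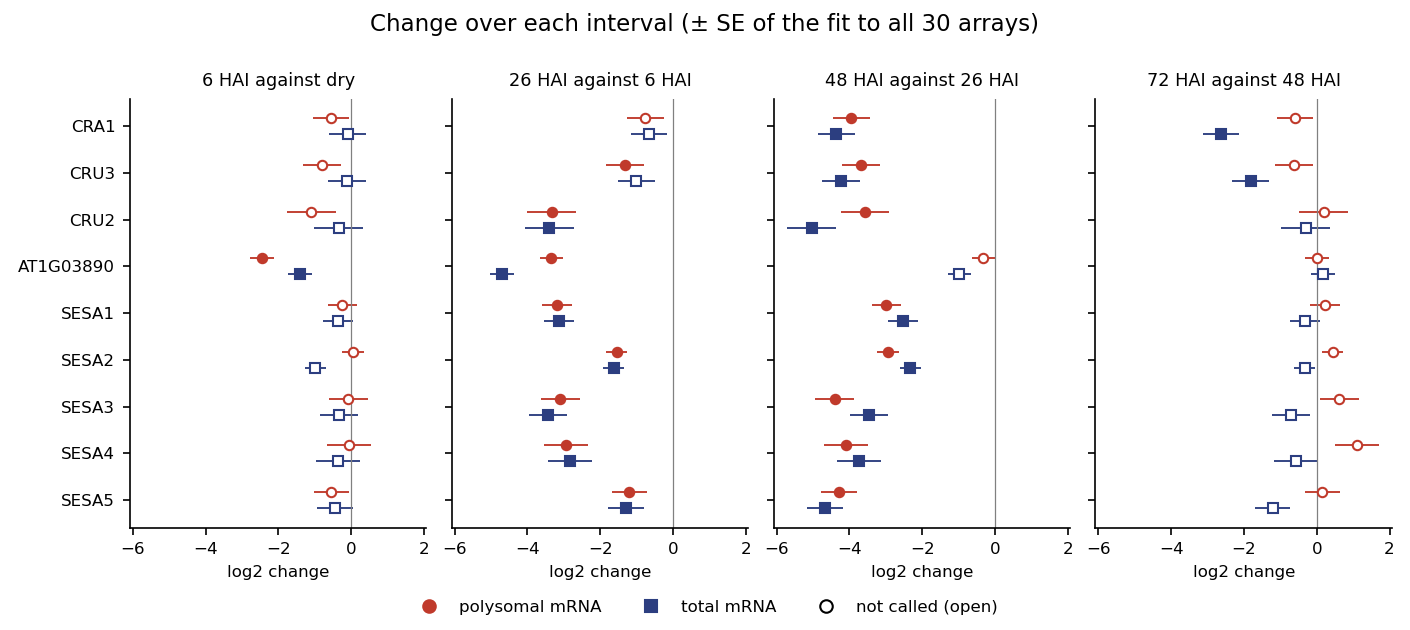
Log2 change of each storage protein gene over the 4 intervals (x axis), with the SE of the fit to all 30 arrays. Circles are polysomal and squares total mRNA, filled where the change was called and open where it was not. Total CRA1 mRNA changed by -0.66 between 6 and 26 HAI and by -4.36 between 26 and 48 HAI, AT1G03890 by -4.70 and -0.97, and polysomal values of 72 HAI include replicate 3.

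Between 48 and 72 HAI, when the seedlings turn green, 2 cruciferins that were above noise at 48 HAI fell further in total mRNA. CRA1 changed by -2.63 ± 0.50 (adjusted p = 0.000192, limma) and CRU3 by -1.81 ± 0.52 (adjusted p = 0.00727), so that 2 of 9 were called lower, where 5.37% of all genes tested were called lower and 6.64% higher. CRU3 lost its call when replicate 1 of total mRNA at 48 HAI was left out (-1.44, adjusted p = 0.0559). SESA5 changed by -1.21 ± 0.49 (adjusted p = 0.0543) and was called lower without replicate 2 of total mRNA at 48 HAI (-1.56, adjusted p = 0.0275) and without any one of the polysomal replicates of 72 HAI, as with replicate 3 (adjusted p = 0.000685).

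In polysomal mRNA 0 of 9 were called lower or higher over this interval with all arrays, where 7.34% of all genes tested were called lower and 6.52% higher, and 0 of 9 had an unadjusted p below 0.05 in limma. Without replicate 3 of 72 HAI, 3 of 9 were called lower, where 14.8% of all genes tested were called in either direction. These were CRU3 with a change of -1.77 ± 0.28 (adjusted p = 2.38e-05), CRA1 with -1.66 ± 0.32 (adjusted p = 0.000261) and CRU2 with -1.38 ± 0.28 (adjusted p = 0.000431). The CRU2 means behind its call were both below the noise level, at 3.66 (48 HAI) and 2.27 (72 HAI without replicate 3), so that this call carries no order. CRU2 had a change of 0.20 with replicate 3, so its sign turned. When replicate 1 of polysomal mRNA at 72 HAI was left out instead, SESA3 and SESA4 were called higher (1.43 and 1.82), and without replicate 2 SESA4 was (1.83).

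The comparison of 72 HAI with dry seeds held with or without replicate 3. Without it the polysomal changes were -4.37 (SESA2) to -9.38 (CRU2), with a median of -6.96, and all 9 genes were called lower. Several members were at noise at 72 HAI, so that the sizes depend on values read there. With levels below 4 set to 4, the changes were -3.00 to -6.65 in polysomal mRNA and -4.18 to -7.67 in total mRNA.

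Polysome occupancy, the polysomal minus the total level on the log2 scale, asks whether the share of a transcript found on polysomes departed from its abundance. For the storage protein genes it lay mostly a little below 0 until 26 HAI. In dry seeds it was -0.02 (CRU2) to -1.18 (SESA2), and at 6 HAI -0.06 (SESA4) to -1.24 (AT1G03890), with all 9 values negative at both times and medians of -0.36 and -0.48, against 0.09 and 0.06 for all genes tested. At 26 HAI the median was -0.38, against 0.05 for all genes tested, and 7 of 9 values were negative. At 48 HAI the median was -0.54, against 0.10 for all genes tested, and 7 of 9 values were negative. Several members were below the noise level there, and with levels below 4 set to 4 the 48 HAI median was -0.0009. With array medians set equal the value of CRU2 in dry seeds was above 0, and with a further quantile normalization 6 of 9 were negative in dry seeds and 8 of 9 at 6 HAI.

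In dry seeds SESA2 was the 1 member whose polysomal level was called lower than its total level, where 0.697% of all genes tested were called lower and 2.69% higher. It had 6.77, 6.99 and 7.24 in polysomal mRNA, against 8.28, 7.98 and 8.28 in total mRNA, a difference of -1.18 ± 0.29 (adjusted p = 0.00529, limma), and the groups did not overlap. At 6 HAI it had 7.40, 7.02 and 6.72 in polysomal mRNA, against 7.47, 6.98 and 7.14 in total mRNA, and the groups overlapped. At 6 HAI the sole member called was AT1G03890, at -1.24 ± 0.32 (adjusted p = 0.00755), where 2.71% of all genes tested were called lower and 1.26% higher. Its polysomal arrays lay below its total mRNA arrays at 6 HAI, at 6.10 to 6.55 in polysomal mRNA, against 7.43 to 7.87 in total mRNA.

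The later comparisons of the fractions depended on single arrays. At 26 HAI 0 of 9 were called with all arrays and 1 of 9 (CRU3) had an unadjusted p below 0.05 in limma, where 2.79% of all genes tested were called lower and 0.697% higher, and without polysomal replicate 3 of 72 HAI CRU3 was called lower, with the same difference of -1.10 and an adjusted p of 0.00312 in place of 0.129. At 48 HAI 0 of 9 were called and 3 of 9 (AT1G03890, SESA1 and SESA2) had an unadjusted p below 0.05, where 6.4% were called lower and 3.7% higher, and without that array SESA1 was called lower, with a difference of -1.01 and an adjusted p of 0.00579 in place of 0.0518. SESA1 was also called lower at 48 HAI without replicate 1 of total mRNA or replicate 3 of polysomal mRNA of 48 HAI, and without replicate 1 of total mRNA or replicate 2 of polysomal mRNA of 72 HAI. Its mean polysomal level there was 3.20 and thus below noise.

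At 72 HAI CRA1 (1.80 ± 0.50, adjusted p = 0.00625) and SESA5 (1.36 ± 0.49, adjusted p = 0.0276) were called higher in polysomal than in total mRNA with all arrays, where 4.26% of all genes tested were called higher and 7.56% lower. Without polysomal replicate 3, 0 of 9 were called higher, CRA1 having 0.74 (adjusted p = 0.0766) and SESA5 0.32 (adjusted p = 0.418). SESA1 was then called lower at -1.23 (adjusted p = 0.00343). Its means there were both below the noise level, at 2.66 in polysomal mRNA without that array and 3.88 in total mRNA. The median of the 9 was 0.63 with that array and -0.30 without it. Leaving out replicate 1 or replicate 2 of polysomal mRNA instead gave 4 called higher, and leaving out replicate 1 or 3 of total mRNA at 72 HAI gave 1.

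**Figure D4:**
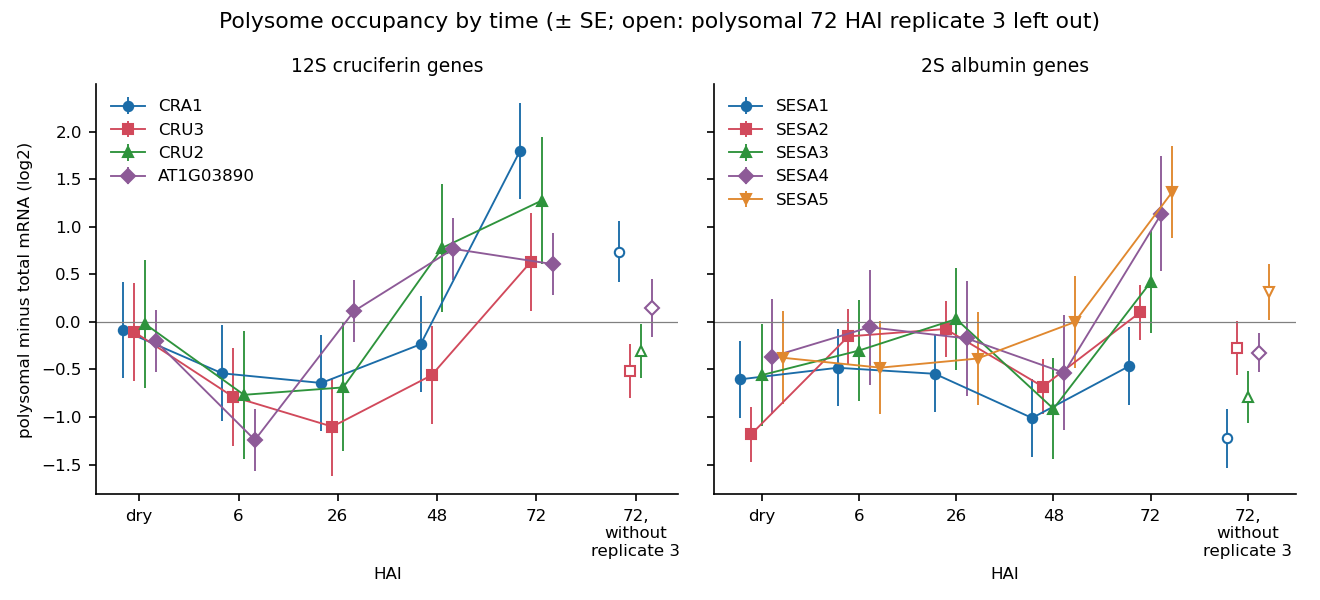
Polysomal minus total mRNA level (log2, y axis) of the cruciferin and the albumin genes by time, with the SE of the fit. The open symbols at the right give 72 HAI with polysomal replicate 3 left out. CRA1 stood at 1.80 at 72 HAI with that replicate and at 0.74 without it, and SESA2 at -1.18 in dry seeds.

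Changes of polysome occupancy between time points were tested as the difference between the fractions at the later time minus that at the earlier one. Between dry seeds and 6 HAI 0 of 9 were called, where 2.17% of all genes tested were called higher and 7.05% lower, and 2 of 9 (AT1G03890 and SESA2) had an unadjusted p below 0.05 in limma. The 4 cruciferins had changes of -0.45 (CRA1), -0.68 (CRU3), -0.75 (CRU2) and -1.04 (AT1G03890), and the clustered albumins had changes of 0.12 (SESA1), 0.26 (SESA3), 0.31 (SESA4) and 1.03 (SESA2), with SESA5 at -0.10. The SE of these values were 0.41 to 0.95, from a spread pooled over all groups. Without polysomal replicate 3 of 72 HAI they were 0.26 (SESA4) to 0.41 (CRA1). The split by family was noticed after the values were seen and was not tested. SESA2 was called higher without polysomal replicate 3 of 72 HAI (1.03, adjusted p = 0.0468 in place of 0.084), and AT1G03890 had an adjusted p of 0.0599 without it, in place of 0.118.

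Between 6 and 26 HAI 0 of 9 were called, where 0% of all genes tested were called higher and 0.0234% lower, and 1 of 9 (AT1G03890) had an unadjusted p below 0.05. AT1G03890 had the largest change of the 9, at 1.36 ± 0.46 (adjusted p = 0.589), and was below noise at 26 HAI. Between 26 and 48 HAI 0 of 9 were called, where 1.1% of all genes tested were called higher and 3.3% lower, with values of -0.94 (SESA3) to 1.47 (CRU2) and 0 of 9 with an unadjusted p below 0.05. CRU2 was called higher over this interval without polysomal replicate 3 of 72 HAI (adjusted p = 0.013), but its level at 48 HAI was below noise in both fractions, and with levels below 4 set to 4 its change was 0.69 (adjusted p = 0.554). Between 48 and 72 HAI 0 of 9 were called, where 0.0645% of all genes tested were called higher and 0.141% lower, and 1 of 9 (CRA1) had an unadjusted p below 0.05. The median of the 9 was 1.19 with replicate 3 of polysomal mRNA at 72 HAI and 0.13 without it.

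Between dry seeds and 72 HAI all 9 values were positive with all arrays, with a median of 1.28 against -0.06 for all genes tested, and SESA2 was called higher (1.28 ± 0.41, adjusted p = 0.0256, limma), where 4.28% of all genes tested were called higher and 9.13% lower. Without polysomal replicate 3 of 72 HAI the median was 0.04, 4 of 9 values were negative, and 0 of 9 were called. SESA2 then had 0.90 (adjusted p = 0.096), and it lost its call as well without replicate 1 of dry polysomal mRNA (1.17, adjusted p = 0.0648) or replicate 1 of total mRNA at 72 HAI (1.09, adjusted p = 0.0758). Without replicate 1 or replicate 2 of polysomal mRNA at 72 HAI, 4 of 9 were called. SESA2 was below the noise level on all 6 arrays of 72 HAI.

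Of 10 listed regulators of seed maturation 7 passed the noise filter. At 72 HAI against dry seeds 5 of these were called lower and 0 higher in both fractions. Of all genes tested, 31.1% (polysomal) and 27.1% (total) were called lower. The median change of the 7 was -2.26 in polysomal and -1.85 in total mRNA, against -0.14 and 0.06 for all genes tested. Without polysomal replicate 3 of 72 HAI their polysomal median was -2.43. ABI5, a bZIP factor of abscisic acid signalling, averaged 9.97, 9.17, 8.38, 4.83 and 4.79 in polysomal mRNA over the 5 time points and 10.17, 9.04, 8.35, 5.72 and 5.35 in total mRNA. ABI3, the B3 factor that acts with it, averaged 8.34, 9.19, 8.41, 5.35 and 4.35 in polysomal mRNA and 8.60, 9.24, 8.60, 5.33 and 4.88 in total mRNA. At 48 against 26 HAI, 3 of the 7 regulators were called lower in both fractions, which were ABI3, ABI5 and EEL. Of all genes tested, 14.6% (polysomal) and 14.9% (total) were called lower there. The median of the 7 was 0.13 in polysomal and 0.10 in total mRNA. At 6 HAI against dry seeds 2 of 7 were called lower in polysomal and 4 of 7 in total mRNA. The shares of all genes tested were 15.1% and 9.93%. Total mRNA of ABI5 changed by -4.82 ± 0.18 and that of ABI3 by -3.72 ± 0.23 from dry seeds to 72 HAI, and that of EEL, another bZIP factor, by -3.35 ± 0.15 (highest adjusted p = 8.67e-14, limma). LEC1 and LEC2, the earlier regulators of embryo development, did not pass the noise filter. Of 7 repressors of the seed program 1 was called at 72 HAI against dry seeds. This was CLF, a histone methyltransferase of the Polycomb complex, which rose by 2.64 ± 0.20 in polysomal and 2.60 ± 0.20 in total mRNA. Of all genes tested, 30.2% (polysomal) and 33% (total) were called higher, and 31.1% and 27.1% lower. The medians of the 7 were -0.24 and 0.11.

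Of 10 listed genes for sorting and folding of storage proteins, 6 were called lower and 1 higher in polysomal mRNA, and 5 lower and 1 higher in total mRNA, at 72 HAI against dry seeds, with medians of -1.11 and -0.90 in the same order. Of all genes tested, 31.1% were called lower and 30.2% higher in polysomal mRNA and 27.1% lower and 33% higher in total mRNA, with medians of -0.14 and 0.06. VSR1, a sorting receptor that carries storage proteins to the vacuole, changed by -2.90 ± 0.20 in polysomal and -2.00 ± 0.20 in total mRNA, and the related VSR3 by -2.76 ± 0.19 and -1.80 ± 0.19 in the same order. Both were called for a lower polysome occupancy at 6 HAI against dry seeds, with changes of -1.54 (adjusted p = 0.000802) and -1.38 (adjusted p = 0.00105, limma). PDIL1-1, a protein disulfide isomerase, rose by 2.19 ± 0.24 in polysomal and 2.67 ± 0.24 in total mRNA.

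Of 8 listed protease genes 6 were tested, and 3 were called lower and 2 higher in both fractions at 72 HAI against dry seeds, with medians of -0.63 in polysomal and -0.25 in total mRNA. These shares are to be read beside the 31.1% lower and 30.2% higher in polysomal mRNA and the 27.1% lower and 33% higher in total mRNA over all genes tested. BETA-VPE, the vacuolar processing enzyme that cuts 12S precursors in seeds, averaged 11.05, 9.56, 8.14, 5.27 and 4.59 in polysomal mRNA over the 5 time points and 11.13, 10.55, 9.28, 6.09 and 5.34 in total mRNA. Its polysomal mean at 72 HAI was 3.84 without polysomal replicate 3. Its polysome occupancy at 72 HAI against dry seeds was called lower without that replicate (-1.42, adjusted p = 0.00428, limma) and not with it. The papain-type protease RD21A averaged 2.40, 2.33, 5.82, 9.32 and 8.82 in polysomal mRNA and 2.36, 2.42, 6.55, 9.73 and 9.62 in total mRNA, so that it passed the noise level at 26 HAI. The related RD19 rose by 4.51 ± 0.28 in polysomal and 4.92 ± 0.28 in total mRNA. APA1, an aspartic protease of the vacuole, changed by -1.90 ± 0.17 in polysomal and -1.01 ± 0.17 in total mRNA, and its polysome occupancy was called lower at 6 HAI against dry seeds (-1.19, adjusted p = 0.00195).

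The other cupins, which are vicilin-like relatives of the cruciferins, fell as well. All 4 listed genes were called lower at 72 HAI against dry seeds in both fractions, where 31.1% (polysomal) and 27.1% (total) of all genes tested were. Their median was -6.60 in polysomal mRNA (-7.20 without polysomal replicate 3 of 72 HAI) and -6.25 in total mRNA. PAP85 changed by -6.21 ± 0.42 in polysomal and -7.68 ± 0.42 in total mRNA, and AT2G28490 by -6.74 ± 0.32 and -7.50 ± 0.32 in the same order. Without that replicate the polysomal changes were -7.07 (PAP85) and -7.32 (AT2G28490). AT2G18540 differed from these in its fractions: it averaged 9.97, 5.17, 4.93, 2.38 and 3.00 in polysomal mRNA and 9.02, 5.39, 5.35, 5.72 and 5.66 in total mRNA. Its polysome occupancy was called lower at 48 against 26 HAI (-2.93, adjusted p = 0.000142) and at 72 HAI against dry seeds (-3.60, adjusted p = 2.2e-06), and that of AT4G36700 at 72 HAI against dry seeds (-1.45, adjusted p = 0.0122). Without polysomal replicate 3 of 72 HAI these were -2.93, -4.14 and -1.78. The later polysomal means behind them were below the noise level, at 2.38 (48 HAI) and 3.00 (72 HAI) for AT2G18540 and 2.75 (72 HAI) for AT4G36700. Their sizes thus depend on values read at noise. None of the 9 storage protein genes was called for a lower occupancy in these comparisons. At 6 HAI against dry seeds 0 of the 4 cupins were called for occupancy with all arrays, where 7.05% of all genes tested were called lower. Without polysomal replicate 3 of 72 HAI 2 of the 4 were called lower, where 9.48% of all genes tested were called in either direction.

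**Figure D5:**
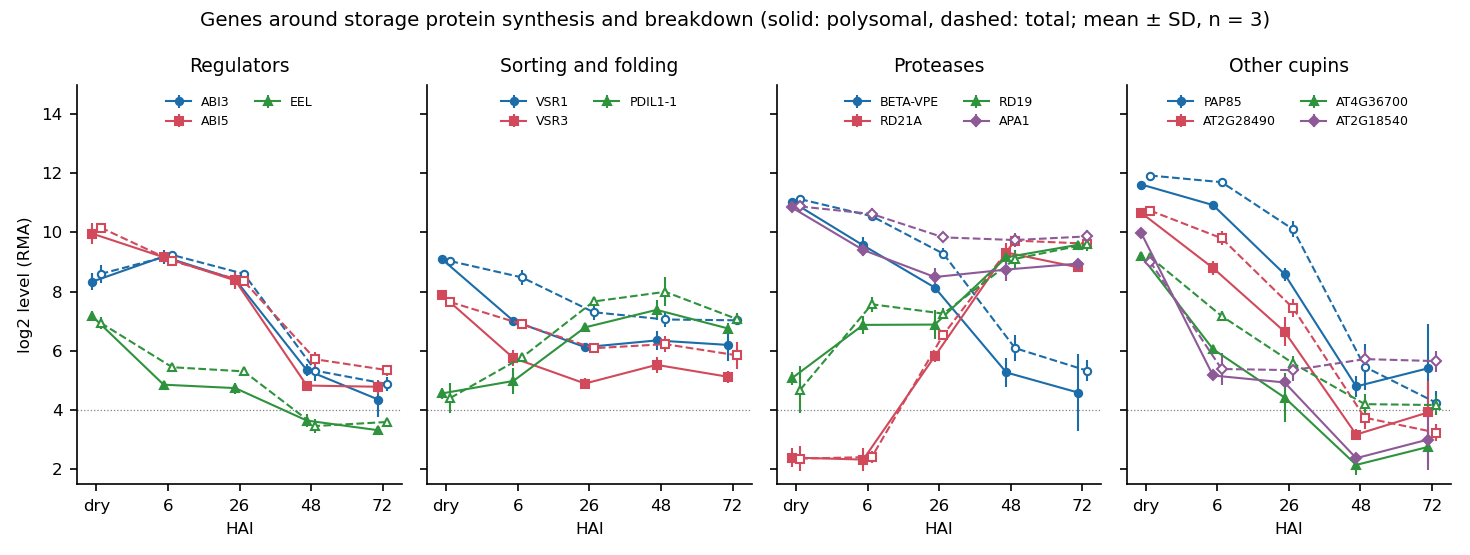
Log2 level (mean ± SD, n = 3) of regulators, sorting and folding genes, proteases and other cupins by time. Filled symbols and solid lines are polysomal mRNA, open symbols and dashed lines total mRNA, and the dotted line marks the noise level of 4. Total BETA-VPE mRNA averaged 5.34 at 72 HAI and 11.13 in dry seeds, and total RD21A mRNA 9.62 at 72 HAI and 2.36 in dry seeds.

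The material was checked against markers of the parts of a seed. The 4 seed markers had a mean level per array of 3.81 to 6.64 at 72 HAI, against 11.37 to 11.48 in dry seeds, in polysomal mRNA, and of 4.48 to 4.98 at 72 HAI, against 11.62 to 11.71 in dry seeds, in total mRNA. The 4 were called lower in both fractions at 72 HAI against dry seeds, where 31.1% (polysomal) and 27.1% (total) of all genes tested were. OLEO2, another oleosin, changed by -7.62 ± 0.46 in polysomal (-8.59 without polysomal replicate 3 of 72 HAI) and -7.96 ± 0.46 in total mRNA. The median of the 4 was -6.42 in polysomal mRNA (-7.27 without that replicate) and -6.98 in total mRNA. The polysome occupancy of EM1, another of the 4, was called lower at 72 HAI against dry seeds without that replicate (-1.38, adjusted p = 0.00174, limma) and not with it. Of 4 endosperm markers 3 were tested. EPR1, an extensin-like gene of the endosperm, changed by -5.78 ± 0.31 in polysomal and -4.24 ± 0.31 in total mRNA, with a lower polysome occupancy at 72 HAI (-1.54, adjusted p = 0.0119), and its polysomal change was -6.41 and that of its occupancy -2.17 without polysomal replicate 3. EXPA2, an expansin, rose by 2.13 ± 0.30 in polysomal and 2.06 ± 0.30 in total mRNA. The endosperm markers moved over the intervals in which the storage protein transcripts were lost. At 26 against 6 HAI 2 of 3 were called higher and 1 lower in both fractions. Of all genes tested, 14.7% (polysomal) and 15.5% (total) were called higher there, and 9.77% and 10.2% lower. At 48 against 26 HAI 3 of 3 were called lower in both fractions, where 14.6% and 14.9% of all genes tested were. Their medians over this later interval were -2.22 in polysomal and -2.06 in total mRNA. The 3 seed coat markers BAN, TT2 and TT12 were at noise on all arrays, with a highest mean of 2.24 per array. Of 4 green seedling markers 3 were tested, and these rose from dry seeds to 72 HAI. LHCB2.2, a light-harvesting protein, rose by 8.31 ± 0.28 in polysomal and 6.63 ± 0.28 in total mRNA. RBCS1A, a small subunit of Rubisco, rose by 5.64 ± 0.17 and 5.07 ± 0.17 in the same order. The RBCS1A occupancy was called higher at 6 HAI against dry seeds (1.03, adjusted p = 0.00465) and that of LHCB2.2 at 72 HAI against dry seeds (1.68, adjusted p = 0.00365). RBCS3B, another small subunit, rose by 3.65 ± 0.39 in polysomal and 4.01 ± 0.39 in total mRNA. The part of the changing make-up of the seedling in the fall of the storage protein genes was not tested.

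The 9 profiles were alike but not equal. Over the 10 group means, Pearson's r between 2 members was 0.767 to 0.997 for the 36 pairs, and r of a member with the mean of the other 8 was 0.879 for AT1G03890 and 0.948 for CRA1, against 0.973 (CRU3) to 0.994 (SESA3) for the other 7. These are descriptions over 10 means that share arrays and a normalization. Among 995 other genes whose group means spanned at least 5, the 10 whose profile was most like the mean of the members had r of 0.993 to 0.997. They were AT2G41280 (M10), AT5G55240 (ATPXG2, a caleosin-type peroxygenase), AT3G19920, AT2G47770 (TSPO), AT3G18570, AT1G73190 (TIP3;1, an aquaporin of the storage vacuole), AT5G12030 (HSP17.6A, a small heat shock protein), AT5G40420 (OLEO2), AT2G23240 (AtMT4b, a metallothionein) and AT4G26050 (PIRL8). TIP3;1, for example, had 3.02, 2.31 and 6.19 on the polysomal arrays of 72 HAI, so replicate 3 was the high one there too. Without that replicate the same 10 genes were again the most alike, with r of 0.994 to 0.997.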

How the data were processed

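Log2 levels of 27827 genes on 30 Arabidopsis Gene ST arrays were taken from the table that the authors deposited. They had summarized Brainarray probe sets with RMA, which subtracts background and normalizes the arrays to each other. Changes are therefore relative to other genes. The array medians of the deposited levels still ran from 3.53 to 4.15. The labelling kit differs between the methods and the labels and is not settled here. An array has no sequencing depth, and 3 replicates per group limit the precision. Arrays were grouped by fraction and time from their labels, 0 columns were left unused, and 0 pairs of arrays were identical. In R 4.3.3 with limma 3.58.1, a linear model with 10 group means was fitted to all arrays for the 17061 genes above 4 in all 3 replicates of at least 1 group, followed by empirical Bayes moderation and Benjamini-Hochberg adjustment per comparison over these genes. Calls needed an adjusted p below 0.05 together with a log2 change above 1 in size. Figures were drawn with matplotlib 3.10.9.

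Members and the 54 genes in 9 lists were chosen with earlier results of these data known. Named are the members, in each list up to 3 genes called at 72 HAI against dry seeds in total mRNA with the largest change and those called for polysome occupancy, and the 10 genes most like the members, with BAN, TT2, TT12, LEC1 and LEC2 added after their values were seen. Of the table's genes 27241 were found in the RefSeq table (TAIR10.1), used for symbols and neighbours. On simulated data, changes of 2 in 200 of 17061 genes were recovered at 98% to 100% for a fraction over time, 98.5% to 99.5% between fractions and 91% to 95% for polysome occupancy. The simulated noise was normal with no array set apart, and the changed genes were drawn at random. These rates are averages over such genes and were not measured for the 9 members. Alternatives were a filter, scaling, floor, weights, replicate blocks, smaller fits and each array left out. Sequences were not used here.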

Additional observations from a re-analysis of the deposited data

Results flagged for a closer look

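SESA2 was the 1 member whose polysome occupancy differed between 72 HAI and dry seeds by a test of the difference itself, with a change of 1.283 on the log2 scale (adjusted p = 0.0256, limma) and an occupancy of -1.18 in dry seeds. The value was 0.90 (adjusted p = 0.096) without polysomal replicate 3 of 72 HAI, and its level at 72 HAI was below the noise level of 4 on all 6 arrays.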

How the results depend on the processing

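The 40 counts of called storage protein genes were recomputed under each alternative. Of the values other than those that leave out an array, 392 stayed within 1.5 times and 28 did not. At 6 HAI against dry seeds 2 were lower in polysomal mRNA with levels below 4 set to 4, with array weights and with the compared groups alone, and 2 in total mRNA with a further quantile normalization. Between fractions, 1 was lower at 26 HAI with array weights and with the compared groups alone, 1 lower at 48 HAI with a filter at level 5, with either replicate block, with array weights and with the compared groups alone, and 1 (weights) or 0 (groups alone) higher at 72 HAI. For polysome occupancy at 6 HAI against dry seeds, 1 was lower with the floor of 4, with the replicate block within each time point and with the groups alone, and 1 higher with quantile normalization, the floor and the groups alone. For occupancy, 1 was higher at 26 against 6 HAI with the floor and 1 at 48 against 26 HAI with the groups alone. At 72 HAI against dry seeds 2 were higher in occupancy with equal medians, with the floor and with the replicate block as a term, 3 with the block within time points, and 0 with weights, with the groups alone and with adjustment over the comparisons together. The cause of these shifts was not tested. Whether the replicate numbers pair the samples is not settled, and they were not treated as pairs: same-numbered polysomal and total arrays correlated at -0.00 to 0.20 in their deviations, above 0.1 in 2 of 15 pairs, 12 of 15 correlated best with their own number, and the mean correlation was 0.08 for the same and -0.04 for other numbers.

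Leaving out each of the 30 arrays in turn gave 1 to 2 members lower in polysomal mRNA at 6 HAI against dry seeds, 6 to 8 at 26 against 6 HAI, 8 at 48 against 26 HAI, and 0 to 3 lower and 0 to 2 higher at 72 against 48 HAI. In total mRNA it gave 1 to 2, 6 to 8, 8 to 9 and 1 to 3 lower over the 4 intervals. Between fractions it gave 0 to 1 lower at 26, 48 and 72 HAI and 0 to 4 higher at 72 HAI. For occupancy it gave 0 to 1 higher at 6 HAI against dry seeds and at 48 against 26 HAI, and 0 to 4 at 72 HAI against dry seeds. All 9 stayed lower at 72 HAI against dry seeds in both fractions under the alternatives and arrays left out. Of single genes, 1 value reversed, CRU2 in polysomal mRNA at 72 against 48 HAI without polysomal replicate 3 of 72 HAI, with a range of -1.38 to 1.26 over the arrays left out. Equal array medians shifted the median of all genes by -0.44 (polysomal) and -0.53 (total) at 72 HAI against dry seeds. Of the 10 genes most alike in profile, 1 was among the 10 by Spearman's rho and 5 with total mRNA alone. Levels below 4 limit what can be said of members from 48 HAI on.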

Other observations

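The same replicate number held the highest mean of the 9 genes in both fractions at 6, 26 and 48 HAI and not in dry seeds or at 72 HAI. The mean level of the 9 genes at 26 HAI was 7.32, 7.11 and 7.82 on polysomal replicates 1, 2 and 3 and 7.57, 7.69 and 8.15 on those of total mRNA, with replicate 3 the highest in both and the other 2 in opposite order. At 48 HAI it was 4.22, 3.87 and 4.09 in polysomal mRNA and 4.57, 4.11 and 4.28 in total mRNA, with replicate 1 the highest and replicate 2 the lowest in both. At 6 HAI it was 9.89, 9.62 and 9.66 in polysomal mRNA and 10.39, 10.16 and 10.21 in total mRNA. In dry seeds it was 10.32, 10.33 and 10.44 in polysomal mRNA and 10.79, 10.71 and 10.75 in total mRNA. At 72 HAI it was 3.26, 3.17 and 6.25 in polysomal mRNA, against 3.29, 3.61 and 3.49 in total mRNA, so that replicate 3 stood apart in polysomal mRNA alone.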
